A study of Mus musculus with 26 samples.

Results

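A set of 13 assays of a microRNA (miRNA) panel gave more signal in mouse tail-tip fibroblasts, pancreatic islets and primary hepatocytes than in untreated pluripotent cells. The panel had 315 assays, measured by stem-loop RT-qPCR in 26 samples. The deposited tables name each assay by plate letter and position, so the set is given as A33, A40, A41, A45, A53, A72, A78, B09, B12, B41, B42, C22 and C26. No miRNA names, and so no sequences or marker miRNAs, could be attached to positions here. The labels give 303 miRNAs for the 315 positions, so some positions may be controls. Whether any of the 13, or of the reference assays below, is a control could not be checked. The measured value is the threshold cycle (Ct), the PCR cycle at which the signal crosses a threshold, and a lower Ct means more RNA. The level used below is the sample's mean Ct over reference assays minus the Ct of the assay, on a log2 scale in PCR cycles, so that 1 unit is a 2-fold difference at full PCR efficiency. Reference assays are those with a Ct below 35 in all 26 samples, averaged separately for plates A and B (87 assays), plate C (26) and plate D (9). Values without a Ct, or above 35, were set to 35.

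Members were chosen on group medians of this level in 5 groups, namely untreated induced pluripotent stem cells (iPSC), embryonic stem cells (ESC), fibroblasts, islets and hepatocytes. The 5 medians had to span at least 3 log2 units, and the lowest of the fibroblast, islet and hepatocyte medians had to exceed the higher of the iPSC and ESC medians by at least 0.5, a distance called the gap below. The highest of the fibroblast, islet and hepatocyte medians had to stand less than 1 above the second highest. Of 315 assays, 37 had a gap of at least 0.5, 31 of these also spanned 3 units, and 15 of these met the last criterion. B13 and B14 were among 11 positions that the choice left out beforehand, which leaves 13. All contrasts of fibroblasts, islets or hepatocytes with iPSC or ESC are therefore descriptions, with no test.

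The iPSC were 5 clones derived from tail-tip fibroblasts and grown with leukemia inhibitory factor (LIF) on inactivated mouse embryonic fibroblast feeders, as were 3 samples each of the ESC lines D3 and R1. Activin-treated cells were 2 samples each of clones 2 and 3, taken off feeders and kept for 5 days on gelatin in low serum with activin A, at 100 ng/ml per the treatment protocol and 100 ng/ul per the sample characteristics. Fibroblasts gave 5 samples, and islets and hepatocytes of C57BL/6 mice gave 3 each. The labels used here state no strain for the cultured cells, no ages and no reprogramming factors. Samples other than the iPSC clones are not said to be separate cultures or animals, so the p-values below reflect variation among the deposited samples, part or all of which may be technical. RNA from preparations of islets or hepatocytes, or from feeders under iPSC and ESC, may come from more than 1 cell type, and without named marker miRNAs the labelled cell types could not be checked.

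MiRNAs are short RNAs that guide Argonaute proteins to target messenger RNAs and lower their stability and translation. Pluripotent cells are known for a miRNA pool dominated by a few clusters that favour rapid cell division, while many miRNAs found broadly in somatic cells are scarce in them and accumulate as cells leave pluripotency. Activin A, a ligand of the TGF-beta family that signals through Smad proteins, is used to direct pluripotent cells towards definitive endoderm, the germ layer of liver and pancreas.

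Between 187 assays (fibroblast replicate 5) and 276 assays (replicate 2 of treated clone 3) had a Ct below 35 in a sample. Of the 338 values of the 13 assays, 9 had no Ct and 3 were above 35. All 39 islet and all 39 hepatocyte values, all 52 values of treated cells, 64 of 65 fibroblast values, 61 of 65 iPSC values and 71 of 78 ESC values were below 35, so the set was rarely out of reach of the assay in any cell type. Plate A held 7 of the 13, plate B 4, plate C 2 and plate D 0, of 96, 96, 95 and 28 positions. A40 and A41, and B41 and B42, are neighbouring positions. Of the 13, 8 are themselves among the reference assays.

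**Figure D1:**
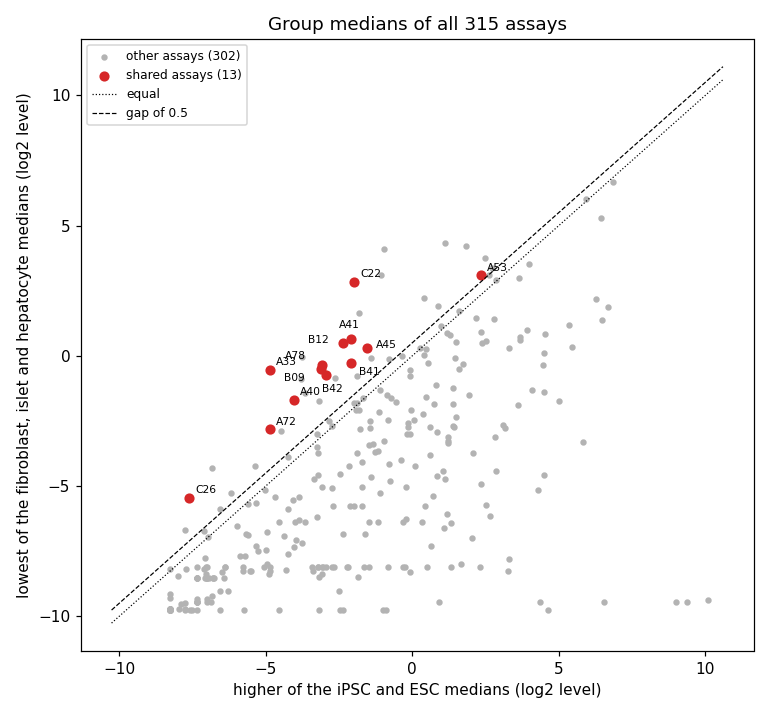
Group medians of all 315 assays on the log2 level scale, with the higher of the iPSC and ESC medians on the horizontal axis and the lowest of the fibroblast, islet and hepatocyte medians on the vertical axis. The 13 shared assays (red) lie above the dashed line, which marks a gap of 0.5, of these C22 and A33 are farthest above it and A53 is closest; grey points above the line are other assays in which 1 cell type stood out, the medians spanned less than 3 units, or the position was left out.

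C22 had the widest gap of the 13, 4.82, which corresponds to 28.2-fold, with a separate reference for each plate set. With 1 mean over all plate sets the gap was 3.20 in C22 and 5.01 in A33, and with quantile normalization 4.63 and 5.09, so C22 did not rank first under either. Its level in iPSC clones 1 to 5 was -1.98, -1.55, -4.39, -3.78 and -1.03, and in the 6 ESC samples it had a lowest value of -4.71, a median of -2.75 and a highest value of -1.32. The fibroblast levels were 2.83, 4.14, 2.61, 3.07 and 2.40, those of islets 2.44, 3.23 and 2.85, and those of hepatocytes 3.88, 3.15 and 2.58. All 11 differentiated samples of C22 were above all 11 untreated pluripotent samples. The medians of fibroblasts, islets and hepatocytes, at 2.83, 2.85 and 3.15, differed by 0.32, less than the SD of any of the 3 groups (0.68, 0.39 and 0.65). In Ct the medians were 29.7 in ESC, 21.8 in fibroblasts, 23.4 in islets and 24.7 in hepatocytes, and the iPSC clones lay between 27.0 and 31.9. The 3 differentiated types were thus less even in Ct. The mean reference Ct of plate C was 25.6 in fibroblasts, 26.6 in islets and 28.5 in hepatocytes, and its part in the even levels was not tested.

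A33 followed with a gap of 4.31, or 19.8-fold, and was at a Ct near the limit in several pluripotent samples. Its levels were -4.71, -2.47, -7.35, -4.85 and -7.80 in iPSC clones 1 to 5, where clone 3 had no Ct below 35, and lay between -7.18 and -2.92 in ESC with a median of -5.25. In fibroblasts they were 0.11, -0.31, -0.61, 0.09 and 1.62, in islets -0.68, -0.15 and 0.33, and in hepatocytes -2.60, -0.54 and 0.60. Fibroblasts and islets lay above every pluripotent sample, while hepatocyte replicate 1, at -2.60, fell just under iPSC clone 2. In Ct hepatocyte replicate 1 was at 28.1, below the lowest pluripotent value, 29.3 in iPSC clone 2. The reference mean of that hepatocyte sample includes very low Ct values in A40 (7.28) and A53 (12.4), which lower its levels on plates A and B. Other plate A assays also had a Ct below 15 in that sample, and any among the reference assays lower these levels further. The 3 differentiated medians lay within 0.63 of each other.

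Besides C22, all 11 differentiated samples were above all 11 untreated pluripotent samples in A72 and B12, so 3 of 13 assays showed no overlap. Over all 315 assays the share was 2.54%, and since the assays were chosen for this contrast nothing is read from the comparison. B12 had iPSC levels of -2.01, -1.16, -4.38, -3.66 and -3.40 and an ESC range of -4.00 to -1.08 with a median of -2.37. Its fibroblast levels were 3.33, 2.38, 0.51, 0.28 and -0.33, its islet levels 1.27, 0.10 and 1.63, and its hepatocyte levels 2.20, 1.86 and 1.78. Fibroblasts were thus the most variable of the 3 in B12 (SD 1.55, n = 5) and hepatocytes the least (SD 0.23, n = 3). In A72 the hepatocyte levels, -2.82, -2.84 and -2.12, were the lowest of the differentiated groups, next to the highest pluripotent sample, iPSC clone 1, at -3.26. Its islets were at -0.71, -0.09 and -0.29.

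Taken 1 cell type at a time, fibroblasts lay wholly above the 11 pluripotent samples in 9 of 13 assays (13.3% of all 315), islets in 8 (18.4%) and hepatocytes in 8 (15.9%). C26 is among the 9, though fibroblast replicate 5 (-5.68) and the highest pluripotent sample, iPSC clone 1 (-6.57), both had no Ct there. Those levels differ only through the reference mean, and values set to 35 also enter the shares over all 315. Of the 143 differentiated values, 119 exceeded every pluripotent value of the same assay. The assays were chosen for this contrast and no share over all assays is given, so nothing is read from that count. In raw Ct, without any reference, 4 assays, A33, A41, A53 and A72, had every differentiated sample below every pluripotent sample, against 1.9% of all assays.

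**Figure D2:**
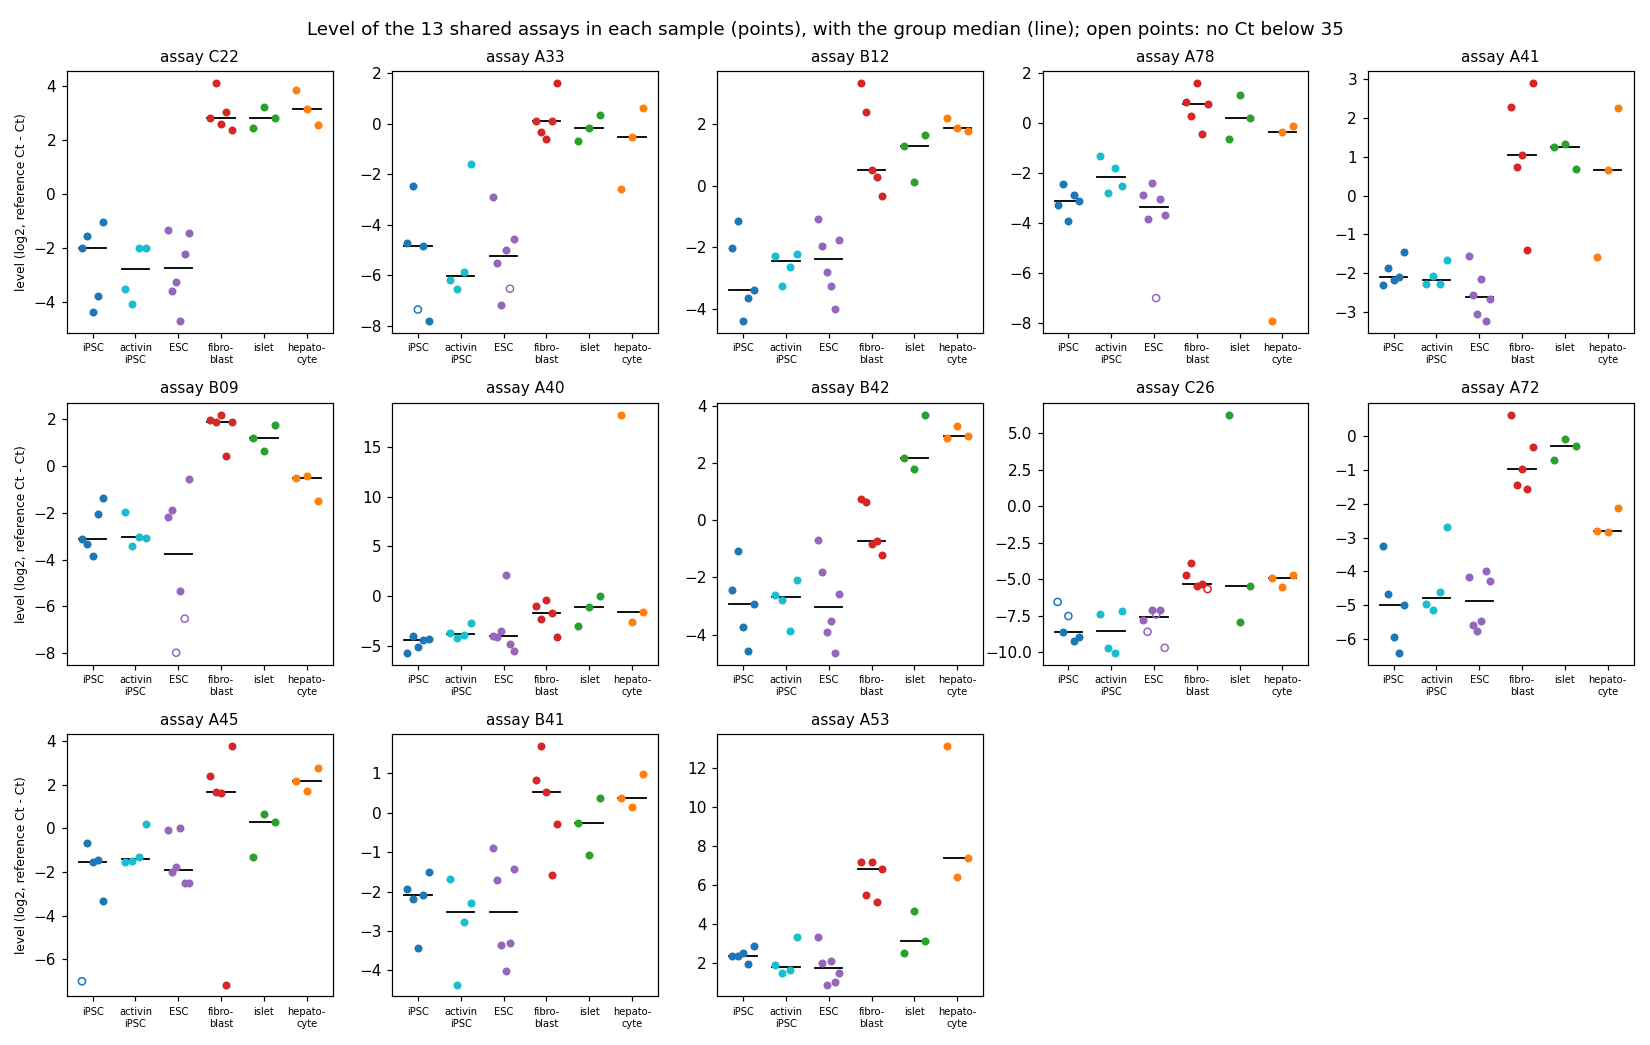
Level of each of the 13 assays (log2, reference Ct minus Ct) in every sample, with points for samples, a black line at the group median and open points where no Ct below 35 was given. C22 separates all differentiated from all pluripotent samples, A53 shows islets close to iPSC, and single points far from their group stand out in A40 and A53 (hepatocyte replicate 1), C26 (islet replicate 1) and A45 (fibroblast replicate 4).

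The assays differed in how evenly the 3 differentiated cell types shared them. The difference between the highest and lowest of the 3 medians ranged from 0.32 in C22 to 4.27 in A53, and it was under 1 in 6 of 13. Hepatocytes had the highest median in 6 assays, fibroblasts in 4 and islets in 3, and the lowest of the 3 was hepatocytes in 5, fibroblasts in 4 and islets in 4. All islet samples were above all hepatocyte samples in 2 of 13 assays, A72 and B09 (30.2% of all 315). All hepatocyte samples were above all islet samples in 3, A45, A53 and B12 (23.2%). The choice kept only assays whose highest differentiated median stood less than 1 above the second, which favours even levels. Nothing is therefore read from these counts or shares.

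A53 was the only one of the 13 with an iPSC median above the reference mean, at 2.35, so its level there was low only beside fibroblasts and hepatocytes. Its levels were 2.35, 2.32, 2.50, 1.95 and 2.87 in iPSC clones and 7.18, 5.46, 7.15, 5.09 and 6.79 in fibroblasts. Hepatocytes had 13.11, 6.42 and 7.36, and islets 2.51, 4.63 and 3.09. Islet replicates 1 and 3 lay below the highest ESC sample at 3.32, so fibroblasts and hepatocytes were separated from pluripotent cells in A53 and islets were not. Its gap of 0.74, or 1.67-fold, was the narrowest, and calling A53 shared by all 3 differentiated types rests on that distance.

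B42 was led by hepatocytes, at 2.87, 3.29 and 2.96, and islets, at 2.17, 1.81 and 3.70. Fibroblasts had 0.74, 0.65, -0.82, -0.73 and -1.22, which overlapped the highest pluripotent values, -0.68 in an ESC sample and -1.06 in iPSC clone 2. The remaining iPSC clones of B42 were at -2.44, -3.74, -4.57 and -2.94. The neighbouring position B41 had no such order, with medians of 0.51 in fibroblasts, -0.27 in islets and 0.38 in hepatocytes, against -2.09 in iPSC and -2.51 in ESC. B41 spanned 3.02 units, just past the required 3, and 1 fibroblast sample (replicate 4, at -1.59) and 1 islet sample (replicate 2, at -1.07) lay among the pluripotent values.

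B09 ran the other way from B42. Fibroblasts were at 1.98, 1.90, 2.21, 0.43 and 1.88 and islets at 1.21, 0.66 and 1.78, while hepatocytes were at -0.50, -0.44 and -1.50. ESC varied widely in B09, from -7.98 to -0.55, and 2 of 6 ESC samples had no Ct. The iPSC clones, all with a Ct, were at -3.13, -3.34, -3.85, -2.06 and -1.36. Hepatocyte replicate 3 of B09 lay below iPSC clone 5, and the gap of 2.64 was 1.67 without D3 replicate 3.

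A45 was highest in hepatocytes, at 2.18, 1.71 and 2.75, above all pluripotent samples. Its fibroblast levels were 2.42, 1.68, 1.64, -7.16 and 3.76, with replicate 4 at a Ct of 33.6 and the others between 21.5 and 26.1. Its islets, at -1.34, 0.65 and 0.29, overlapped ESC, where D3 replicate 1 was at -0.07. In iPSC it was at -0.69, -1.56, -1.43 and -3.33 in clones 2 to 5, and clone 1 had no Ct. The gap of 1.85 was 1.04 without islet replicate 2.

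The other 4 assays, A40, A41, A78 and C26, had gaps of 2.35, 2.74, 2.75 and 2.17. The gap of C26 was 0.92 without islet replicate 1 and 0.53 with the limit at 32, and that of A41 was 1.62 without hepatocyte replicate 3. A41 was even within pluripotent cells (SD 0.33 in iPSC, n = 5, and 0.61 in ESC, n = 6), with iPSC at -2.29, -1.86, -2.16, -2.08 and -1.45. Its fibroblasts were at 2.27, 0.72, 1.04, -1.41 and 2.90, islets at 1.25, 1.32 and 0.68 and hepatocytes at -1.58, 0.66 and 2.24, so that only hepatocyte replicate 1 fell among the pluripotent samples. In Ct that hepatocyte sample, at 27.1, was below the lowest pluripotent value of A41, 28.3. Fibroblasts of A78 were at 0.85, 0.30, 1.61, -0.43 and 0.76 and islets at -0.65, 1.13 and 0.20, against -3.25, -2.44, -3.93, -2.86 and -3.10 in iPSC. Hepatocytes of A78 were at -7.91, -0.35 and -0.13, with a Ct of 33.4 in replicate 1 and 27.2 and 27.0 in the others. The gap of A78 was -0.92 without hepatocyte replicate 2 and -1.03 without replicate 3.

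A40 and C26 each held a value far from its group. A40 had hepatocyte levels of 18.25, -2.59 and -1.56, the first from a Ct of 7.28 in replicate 1, and in ESC a range from -5.51 to 2.07. Fibroblasts of A40 were at -1.04, -2.31, -0.44, -1.70 and -4.14, islets at -3.06, -1.09 and -0.04, and iPSC at -5.70, -4.02, -5.13, -4.43 and -4.28, so fibroblast replicate 5 lay among the iPSC and the islets did not. C26 was near the detection limit, with a Ct below 35 in 3 of 5 iPSC clones, the lowest at 34.4, and in 3 of 6 ESC samples. Hepatocytes of C26 had Ct values of 33.3 to 34.0 and levels of -4.94, -5.55 and -4.72. The mean reference Ct of plate C was 28.5 in hepatocytes and 26.6 in iPSC, and the part of this offset in the level of C26 was not tested. Islets of C26 had Ct values of 19.6, 34.6 and 32.8, and its fibroblasts lay between 29.1 and 30.0 in 4 samples and had no Ct in replicate 5.

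Values at the edge of the criteria were as follows. Inside, A53 had the smallest gap (0.74), B41 the smallest span (3.02) and B42 the largest step between the highest differentiated medians (0.79). Outside, A83 had a step of 1.10 (gap 2.91), A28 a gap of 0.34 (span 3.41) and A30 a step of 1.26 (gap 1.04). B13 and B14, left out by position, had gaps of 3.20 and 5.06, and the gap of B14 exceeded that of C22. A further 16 assays met the gap and span but had 1 cell type standing 1 or more above the others, which was hepatocytes in 9, fibroblasts in 6 and islets in 1.

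**Figure D3:**
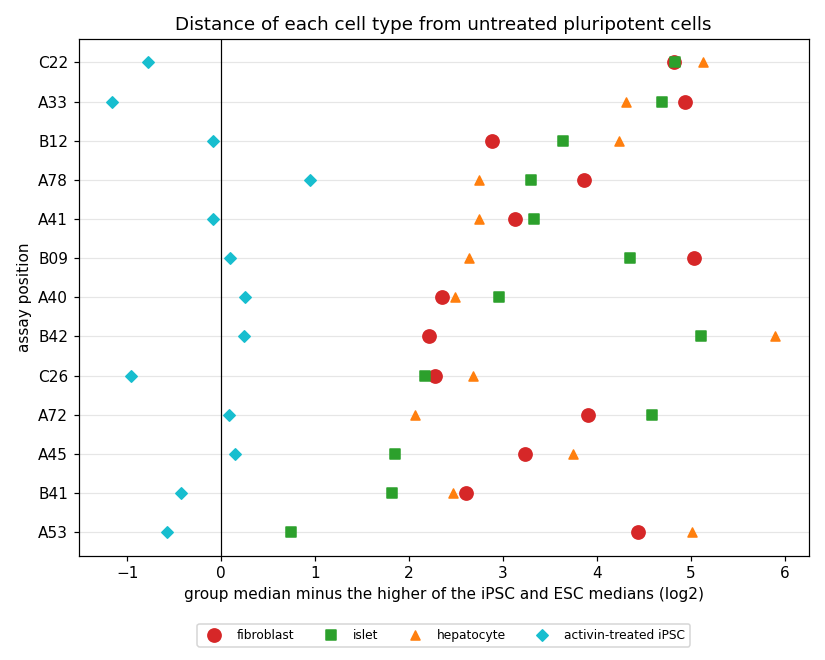
Distance of the fibroblast, islet, hepatocyte and activin-treated iPSC medians from the higher of the iPSC and ESC medians (0 on the horizontal axis, log2 units) for the 13 assays, ordered by gap. Differentiated medians lie between 0.74 (islets, A53) and 5.90 (hepatocytes, B42), and treated medians between -1.16 (A33) and 0.94 (A78).

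The pluripotent groups lay close to each other. The ESC median minus the iPSC median ranged from -0.77 (C22) to 1.03 (B12) over the 13 assays, with a median of -0.33, and was below 0 in 9 of 13. Over the 273 assays with a Ct below 35 in at least 50% of either group it was below 0 in 156, with a median of -0.11, and the median size of the difference was 0.42 for the 13 and 0.45 for all. In 0 of 13 assays were all ESC samples above all iPSC clones (0.635% of all assays) or below them (0.952%). These medians entered the choice of the assays, so no test was made.

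The U6 small nuclear RNA (RNU6), the authors' own reference, could be recovered for iPSC, treated cells and fibroblasts from the deposited fold changes. Relative to RNU6, fibroblast minus iPSC medians of the 13 assays ran from 5.05 (C26) to 8.35 (A33), and relative to the mean Ct from 2.21 (B42) to 5.03 (B09). The median over the 271 assays with a Ct below 35 in at least 50% of either group was 1.98 on the RNU6 scale and -0.93 on the mean Ct scale. Relative to RNU6, all fibroblast samples were above all iPSC clones in 12 of 13 assays (26.7% of all 315), A45 being the exception with fibroblast replicate 4. C26 is counted here with fibroblast replicate 5 and iPSC clones 1 and 3, which had no Ct, set to 35. Values in the authors' deposited table are Ct differences, so those above 0 stand for less RNA in the group named first, and iPSC against fibroblasts lies there between 5.11 (A45) and 8.69 (A33) for the 13. In the authors' deposited table islets against hepatocytes is negative, meaning more RNA in islets, for 11 of 13 with a median of -2.74. Over all assays there it is negative for 230 of 286, with a median of -3.33, so this direction was present across the panel. On the mean Ct scale, islet minus hepatocyte medians were above 0 in 6 of 13 and below 0 in 7. Of the 276 assays compared on that scale, 149 were above 0 and 127 below. These counts differ in more than the reference, since the authors' values are differences of means over samples with a Ct, and RNU6 does not link islets and hepatocytes to the other groups.

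Activin-treated iPSC, which played no part in the choice of the assays beyond the reference, show whether these assays differ after culture with activin. Whether the treated cells had moved towards endoderm could not be checked without named marker miRNAs. None of the 13 passed the threshold between treated and untreated iPSC (limma with Benjamini-Hochberg adjustment over 284 assays, adjusted p 0.999 for each; 0.352% of all assays called, which is 1 assay, and 25 at an unadjusted p under 0.05). At an unadjusted p under 0.05 the count of the 13 was also 0. Their log2 differences, treated minus untreated, ranged from -0.54 to 1.76 with a median of 0.10, above 0 in 7 and below 0 in 6. Over all 284 assays the median was -0.11, with 131 above 0 and 153 below. The median of the 13 was -0.25 without replicate 2 of treated clone 3, -0.09 without iPSC clone 3 and 0.58 without iPSC clone 2, so its sign turned on single samples. Untreated iPSC entered the choice of the assays as a low group, which favours a difference above 0 here. The treated cells had also been taken off feeders and kept on gelatin in low serum, so activin cannot be told apart from these changes of culture.

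The assays with the largest differences were A45, A40 and A78 upwards and B41, C26 and C22 downwards. Treated clone 2 had A45 levels of -1.57 and -1.51 and treated clone 3 had -1.32 and 0.22, which gave a log2 difference of 1.76 (SE 2.00). The difference was 0.71 without iPSC clone 1, the untreated sample with no Ct, and 0.081 with the clone as a block, the pairing the labels give. With that block A78 had 1.07 and A40 0.96, so A45 was then not among the largest. A78 was at -1.33 and -2.80 in treated clone 2 and -1.78 and -2.53 in treated clone 3, with a difference of 1.00 (SE 1.43). A40 had 1.10 (SE 3.39), and the fit shares 1 spread over all groups, including the hepatocyte sample of A40 with a Ct of 7.28. The intervals were wide for all 13. The half-width of the 95% interval had a median of 2.49 log2 units, and for 0 of 13 did the interval lie within a 4-fold change in either direction.

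C22 was at -3.53 and -4.07 in treated clone 2 and at -2.00 and -1.98 in treated clone 3, with a difference of -0.35 (SE 0.96; 95% interval -2.35 to 1.65). B41 had -0.54 (SE 0.85) and C26 had -0.40 (SE 2.14). None of these differences exceeded its error, and those of C22, B41 and C26 changed sign when other settings or fewer samples were used. Of the 52 treated values, 43 lay within the range of the 11 untreated pluripotent samples of the same assay and 36 lay below every differentiated sample. No share over all assays is given for these values, so they only describe the 13. All 4 treated samples were below all 11 differentiated samples in 6 of 13 assays (A41, B09, B12, B41, B42 and C22; 4.13% of all assays). The choice of the assays for low pluripotent levels favours this count. The lowest differentiated median was 1.32 (A53) to 5.59 (C22) above the treated median. In 0 of 13 assays were all treated samples above all untreated clones (3.17% of all assays), or all below (5.71%).

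Relative to RNU6 the 13 had a median difference of 1.91 between treated and untreated iPSC, and in 0 of 13 were all treated samples above all untreated clones (10.2% of all 315). In the authors' deposited table, untreated against treated iPSC is above 0 for all 13, between 0.98 (B41) and 3.21 (C22) with a median of 2.00, and for 268 of 303 assays, with a median of 1.66. The shift on the RNU6 scale was thus present across the panel.

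**Figure D4:**
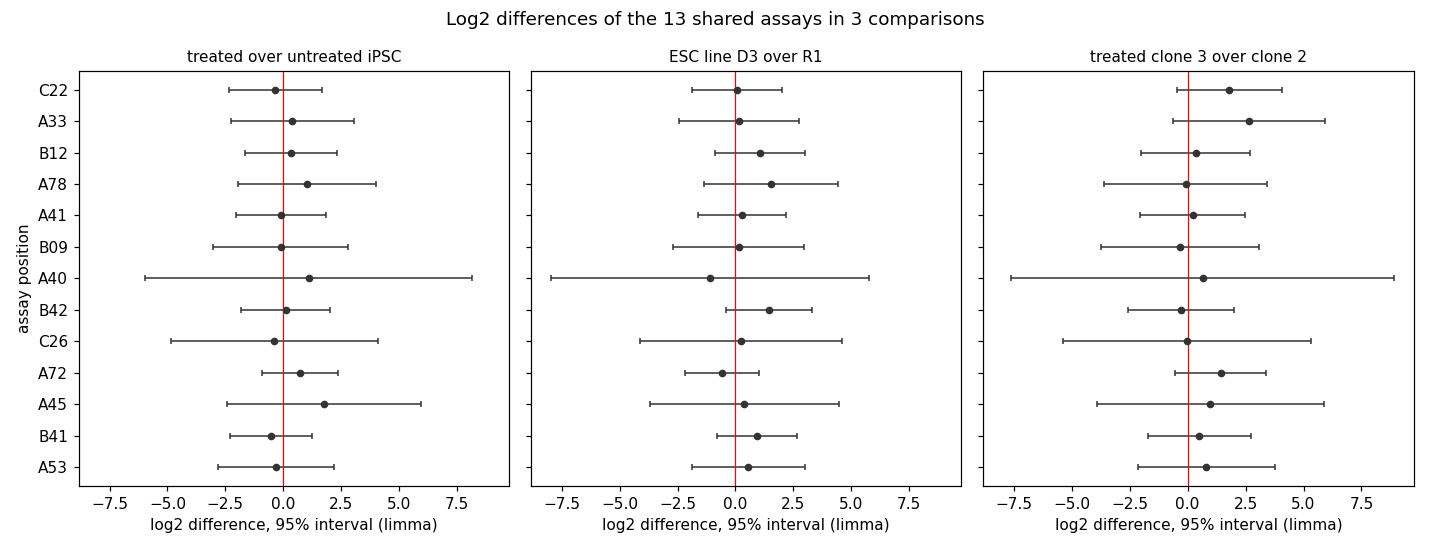
Log2 differences with 95% intervals from limma for the 13 assays, in order of gap, for treated over untreated iPSC (5 untreated clones, 2 treated clones), ESC line D3 over R1 (3 samples each) and treated clone 3 over treated clone 2 (2 samples each). Every interval includes 0, and those of A40 and C26 are the widest.

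Differences within the pluripotent and within the treated group did not enter the choice, since the rule pooled both ESC lines in 1 median and left treated cells aside. Between ESC lines D3 and R1, limma called 0 of 273 assays (0% of all), with 3 at an unadjusted p under 0.05, none of them among the 13. The difference, D3 minus R1, was above 0 in 11 of 13 assays and in 116 of all 273, with medians of 0.30 and -0.12. The largest were A78 at 1.53 (SE 1.39), where 1 R1 sample had no Ct, and B42 at 1.44 (SE 0.90), and the smallest adjusted p of the 13 was 1.00. A78 had 0.32 without that R1 sample (replicate 1), and B42 had 0.71 without D3 replicate 1 and 2.33 without D3 replicate 3. D3 replicate 1 was the highest of the 6 ESC samples in 7 of 13 assays and in 12.02% of the 208 assays detected below 35 in every ESC sample. Only 9 of the 13 were below 35 in every ESC sample, so the count and the share rest on unlike sets. The median of the 13 was -0.12 without D3 replicate 1 and 1.15 without D3 replicate 3.

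Between treated clone 3 and treated clone 2, limma called 4 of 295 assays (1.36%; 1.02% higher and 0.339% lower in clone 3) and 0 of the 13, with the smallest adjusted p of the 13 at 0.692 and none at an unadjusted p under 0.05. A33 had a difference, clone 3 minus clone 2, of 2.64 (SE 1.58), from levels of -6.17 and -6.56 in clone 2 and -5.86 and -1.59 in clone 3. That difference was 4.77 without replicate 1 and 0.51 without replicate 2 of clone 3, so the size rests on that clone's replicate 2. C22 had 1.81 (SE 1.08), with values from 1.03 (quantile normalization) to 6.62 (RNU6) over the settings. C22 exceeded A33 with RNU6 (6.62 against 2.33) and with 1 mean over all plate sets (2.66 against 2.39). Replicate 2 of treated clone 3 was the highest of the 4 treated samples in 10 of 13 assays, or 76.9%, against 29.2% of the 243 assays detected below 35 in every treated sample. Replicate 2 of treated clone 2 was the lowest in 9 of 13, or 69.2%, against 32.9%.

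Among untreated samples, iPSC clones 2 and 5 were the highest of the 5 clones in 6 and 5 of the 13 assays, and clones 3 and 4 in 0 each. Over 214 assays detected below 35 in every clone, the shares were 12.6% for clone 2, 20.1% for clone 5, 22.4% for clone 3 and 21.5% for clone 4. Of the 13 only 10 were below 35 in every clone, so counts and shares rest on unlike sets. Fibroblast replicate 4 was the lowest of its group in 7 of 13 assays and the highest in 0. It was the lowest in 25.7% of the 171 assays detected below 35 in every fibroblast sample, which holds for 12 of the 13. The median SD of the 13 was 1.12 in iPSC, 1.27 in ESC, 0.91 in fibroblasts, 0.80 in islets and 0.59 in hepatocytes, and over all assays the corresponding values were 0.93, 0.85, 1.42, 0.80 and 0.78. In the 13 this SD was larger in pluripotent samples than in fibroblasts, while over all assays it was larger in fibroblasts. The SDs over all assays include values set to 35, for which the level varies only with the reference mean. On plates A and B that mean ran from 23.2 to 29.9 in fibroblasts and from 26.8 to 28.2 in iPSC. Whether the SDs differ was not tested, nor was the part of the reference in them.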

How the data were processed

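Per the labels' protocols, the panel covered 303 miRNAs and Ct was normalized to RNU6; how Ct thresholds were set is not given in the sources. The deposited table holds raw Ct values, in PCR cycles. The authors' deposited fold-change table holds log2 differences of normalized Ct, each recomputed here as a difference of group means over samples that had a Ct. Least squares on both tables recovered RNU6 per plate set, up to a constant, for 20 samples (largest residual 4.0e-09 cycles), with iPSC, treated cells and fibroblasts linked to each other but not to islets and hepatocytes.

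Members, lists and tests were chosen with earlier results of these data known. Levels were fitted by limma 3.58.1 in R 4.3.3 (lmFit and eBayes) in 1 fit over all groups, without a block, with the 2 treated samples of a clone averaged first except for the comparison of treated clones. Testing required a Ct below 35 in 50% or more of 1 group's samples, and p-values were adjusted over all assays tested, with a threshold of 0.05. In simulated data, limma recovered 23% of 4-fold and 67.5% of 16-fold changes for activin, 21.5% and 72.5% for D3 against R1, and 17.5% and 56% for the treated clones. The simulated samples had independent normal noise with 1 SD per assay, no variation shared by samples of a clone and no limit at 35. These rates therefore need not hold for the measured samples. The assays named in full were set by gap, by level in each differentiated type, by difference under activin and by calls, and others were added to complete the 13. Marker lists of miRNAs were not used, since positions carry no names. The labels give clone numbers that pair treated with untreated iPSC (correlations of deviations from the group means 0.16 for clone 2 and -0.05 for clone 3). Python 3.11.15, numpy 2.4.6, pandas 2.3.3 and matplotlib 3.10.9 were used for the rest.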

Additional observations from a re-analysis of the deposited data

Results flagged for a closer look

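Of 52 combinations of an assay and a group of 4 to 6 samples, 6 had a sample whose gap to the nearest other sample was a larger share of the group's range than Dixon's 95% limit, where chance gives about 1 in 20. In replicate 2 of treated clone 3, A33 was at -1.59 (the other treated samples at -6.56 to -5.86) and A45 at 0.22 (others -1.57 to -1.32). ESC line R1 replicate 1 was at 2.07 in A40 (others -5.51 to -3.51) and, with no Ct, at -6.99 in A78 (others -3.84 to -2.41). Fibroblast replicate 4 was at -7.16 in A45 (others 1.64 to 3.76) and at 0.43 in B09 (others 1.88 to 2.21).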

How the results depend on the processing

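None of the 13 assays was called in the 3 comparisons under any setting run. Over all assays, the 1 call for activin became 2 with the limit at 32 and with only the groups compared, 4 with missing values left out, with quantile normalization and with each treated sample as its own column, 3 with a Ct below 35 in every sample, and 0 with 1 mean over all plate sets, the median reference, RNU6, no filter or the clone as a replicate block. The 4 calls between treated clones became 1 with the limit at 32, 1 mean over all plate sets or RNU6, 0 with missing values left out or a Ct below 35 in every sample, 5 with the limit at 40, and 6 with the median reference or Ct values below 15 as missing. Leaving out each sample gave 0 to 5 calls for activin, 0 for D3 against R1 and 1 to 4 for the treated clones. The replicate number as a block gave 0 and 6 calls for the latter comparisons, whose numbers did not pair samples (correlations -0.13 to 0.19 for ESC and -0.02 for treated clones). Activin differences that changed sign were C26 at 1.60 (limit 40), 0.36 (missing values left out), 0.11 (quantile normalization) and 3.16 (RNU6), B41 at 0.98 (RNU6) and 0.035 (clone block), and C22 at 3.21 (RNU6) and 0.072 (clone block). Leaving out samples gave -1.21 to 0.13 for B41, -1.12 to 0.32 for C26 and -0.81 to 0.029 for C22. The cause was not tested.

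The criteria selected 21 assays with quantile normalization (12 of the 13 among them), and 9 to 14 under the other settings, the 9 with group means, which kept 7. Leaving out each of 22 samples gave 11 to 16. A33, A41, A72, B09 and C22 were selected under all of these settings, A53 and B41 in 16 of 22 when samples were left out. The gap of A78 was -1.03 to 2.86 and that of A53 0.45 to 1.51 when samples were left out.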

Other observations

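Ct values below 15 occurred 26 times in the deposited table, in 9 of 26 samples, and 11 of them in hepatocyte replicate 1. Of the 13 assays, A40 (7.28) and A53 (12.4) had such a value, both in that sample. Both are reference assays, so these values lowered the reference mean of that sample on plates A and B, and its levels there. Other plate A assays, such as A64 (3.74) and A75 (6.66), were also below 15 in it. Any of these among the reference assays lowered that mean further. Hepatocyte replicate 1 was the lowest hepatocyte sample in 59.9% of the 182 assays detected below 35 in every hepatocyte sample. With Ct values below 15 set aside, an alternative chosen after seeing the data, 12 of the 13 assays met the criteria and A45 did not. The gap was then 1.99 in A40, 0.94 in A53 and 2.75 in A72, where it had been 2.06. Fold changes relative to RNU6 were also added as a description after the data were seen.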
